A study of Mus musculus with 4 samples.

Results

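The Frizzled receptors are the 10 mouse genes Fzd1 to Fzd10, and all 10 were found among 34468 genes in the 4 libraries. They were chosen as a gene family by name, with earlier results of these data known. Each receptor's estimated counts and TPM (a level scaled to transcript length and to the same total in every library) were summed over its transcripts. The libraries came from forelimb cartilage of C57BL/6 mice, cryosectioned so that chondrocytes could be taken by laser microdissection. How the zones were recognised is not given in the labels, and little RNA was taken into a library kit made for fixed, paraffin-embedded (FFPE) material. HC are hypertrophic chondrocytes at E15.5, an embryonic stage (replicates 3 and 4), and PC are proliferating chondrocytes at E14.5, a day earlier (replicates 1 and 2). The age and the cell state therefore change together, and their parts in a difference cannot be told apart. The labels name no transgene or treatment and do not say whether the replicates came from separate animals, so p-values measure only the spread between these libraries.

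Frizzled proteins are receptors with a membrane core of helices and a cysteine-rich domain outside the cell that binds Wnt ligands. With the co-receptors Lrp5 and Lrp6 they stabilise beta-catenin, and with partners such as Ror2 and Vangl2 they act in planar cell polarity, which orients cells in a tissue. In the growth plate, Wnt signals bear on the columnar stacking of proliferating chondrocytes and on the pace of hypertrophy. The family falls into 4 classes by sequence, Fzd1/2/7, Fzd4/9/10, Fzd5/8 and Fzd3/6. Coding sequences were compared in pairs, with no sorting into classes. Identity was counted as identical bases over the longer coding sequence of the pair, so a difference in length lowers it. The closest relative of each receptor lay in its own class. Identical bases were 77.4% between Fzd7 and Fzd2, 68.9% between Fzd9 and Fzd10, 65.0% between Fzd5 and Fzd8 and 59.1% between Fzd3 and Fzd6. Fzd4 was closest to Fzd10, at 59.2%. On this measure Fzd10 and Fzd9 had 59.2% and 58.7% with Fzd4. They had more with Fzd5 (62.3% and 61.0%), Fzd2 (61.1% and 60.1%) and Fzd7 (60.9% and 60.2%). The coding sequence of Fzd4 is the shortest, at 1611 bases against 1746 in Fzd10 and 1776 in Fzd9, which lowers its values. They therefore do not show that Fzd5, Fzd2 or Fzd7 is nearer to Fzd9 and Fzd10 than Fzd4 is.

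The inner tail of Frizzled proteins carries the motif Lys-Thr-x-x-x-Trp, which binds the transducer Dishevelled. The codons of this motif show how receptors that share a function differ in the bases that reads are assigned by. One in-frame match was found in each coding sequence printed here, all from the GENCODE M21 transcripts (GRCm38), with the Lys-Thr and Trp codons in capitals. Fzd8 is named only and its sequence is not printed.
Fzd9: AAGACTtttcagactTGG
Fzd10: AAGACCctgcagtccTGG
Fzd4: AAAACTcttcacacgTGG
Fzd1: AAGACActgaattccTGG
Fzd2: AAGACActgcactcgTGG
Fzd7: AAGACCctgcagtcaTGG
Fzd5: AAGACTctggagtctTGG
Fzd3: AAGACAtgctttgaaTGG
Fzd6: AAGACGtgcacagaaTGG
Stretches of 31 bases, the length set here for a check of shared sequence, were shared with another receptor at 1.61%, 1.9% and 0.777% of positions in the transcripts of Fzd1, Fzd2 and Fzd7. In Fzd8, Fzd9 and Fzd10 none of these stretches occurred in another receptor or in another gene of the tables. For Fzd8 the GENCODE M21 transcript of 5974 bases was checked, whereas the deposited values rest on a length of 3346 bases.

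The libraries held 15246529 and 21866266 estimated counts in HC and 30373440 and 36644496 in PC. The cartilage collagen Col2a1 was high in all libraries, at 2200 and 4146 TPM in HC and 7676 and 4404 TPM in PC. Of 6 chondrocyte markers 5 were nonetheless lower in both HC libraries than in both PC libraries, with a summed level of 4906 and 8944 TPM in HC and 15982 and 10761 TPM in PC. The cartilage regulator Sox9 had 121.7 and 84.3 TPM in HC and 571 and 443.7 TPM in PC. The hypertrophic collagen Col10a1 had 4714 and 11143 TPM in HC and 55.1 and 385 TPM in PC, so PC replicate 2 stood above PC replicate 1. Markers of most other cell types stood higher in HC. Of all genes tested, 27.7% lay above both PC libraries in both HC libraries and 33.3% lay below. These shares are in the scaled counts of the test described below, and those in TPM were not counted. Of 8 endothelial markers 7 were above both PC libraries in both HC libraries, with a summed level of 81.5 and 68.5 TPM in HC and 19.2 and 14.3 TPM in PC, and Cldn5 was at 0 in HC replicate 3 and in both PC libraries. The same held for 5 of 6 perichondrium and fibroblast, 6 of 7 macrophage, 5 of 7 muscle, 4 of 6 osteoblast, 3 of 5 red blood cell and 2 of 4 epidermis markers. Of 4 nerve and glia markers 3 were below both PC libraries, and of 4 joint markers 1 was above and 2 were below. Summed levels of the first 2 of these lists were 2007 and 1118 TPM in HC against 289 and 360 TPM in PC, and 89.8 and 55.7 TPM in HC against 7.30 and 13.02 TPM in PC. The macrophage marker C1qa was at 0 in both HC libraries. The part of these cells, and of the lower chondrocyte markers, in the receptor values was not tested.

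The family's messages took a smaller part of the total in HC and its make-up differed. Summed over the 10 receptors, the level was 18.6 and 39.2 TPM in HC replicates 3 and 4 and 114 and 64.9 TPM in PC replicates 1 and 2. Both HC libraries lay below both PC libraries, an order that 33.3% of all genes tested had in the scaled counts of the test. As CPM (counts scaled to the same total in every library, with no regard to transcript length), the sums were 96.4 and 160.2 in HC and 312.7 and 212.9 in PC. The estimated counts behind them were 1470 and 3502 in HC and 9497 and 7803 in PC. A few other genes took a larger part of TPM in HC replicate 3. The gene model Gm10800 took 16.1% of TPM there and 6.30% in HC replicate 4, against 4.73% and 5.88% in PC, and mitochondrial genes took 31.3% and 27.1% in HC and 21.8% and 25.2% in PC. Rescaled without these genes, a check chosen after seeing the data, the family summed to 35.4 and 58.9 TPM in HC and 155.2 and 94.1 TPM in PC. All genes tested also shifted down on these scales. Their median log2 fold change was -0.388 on log2(TPM + 1), -0.588 on log2(TPM + 0.1) and -0.292 in counts scaled to library size alone. The log2 ratio of the family's means, HC over PC, was -1.63 in TPM and -1.03 in CPM. The part of the general shift in it was not tested. In bulk samples, fewer cells of a type and less RNA per cell cannot be told apart.

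Within the family, Fzd8 took a larger part in HC and Fzd9 a larger part in PC. In the TPM as deposited Fzd8 ranked first in both HC libraries, a rank that turns when a longer transcript is set against the same counts. It had 31.3% and 35.2% of the family's TPM in HC and 5.33% and 5.18% in PC. Fzd9 led in PC replicate 1 and was second in PC replicate 2, with 8.96% and 4.23% of the family in HC and 35.2% and 23.9% in PC. Fzd7 was the first or second receptor in every library, at 20.6% and 19.9% in HC and 18.7% and 31.6% in PC, and these ranges overlap. By class, Fzd5/8 took 40.2% and 44.4% in HC and 6.17% and 6.75% in PC. Fzd1/2/7 took 33.1% and 33.4% in HC and 51.0% and 59.6% in PC, and Fzd4/9/10 took 12.1% and 6.54% in HC and 36.8% and 25.8% in PC. The pair Fzd3/6 took 14.6% and 15.6% in HC and 5.97% and 7.87% in PC. The HC and PC libraries did not overlap in the share of any class. An exact permutation test of 2 against 2 libraries cannot go below 0.333, so shares were not tested. A share also moves when another receptor moves.

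**Figure D1:**
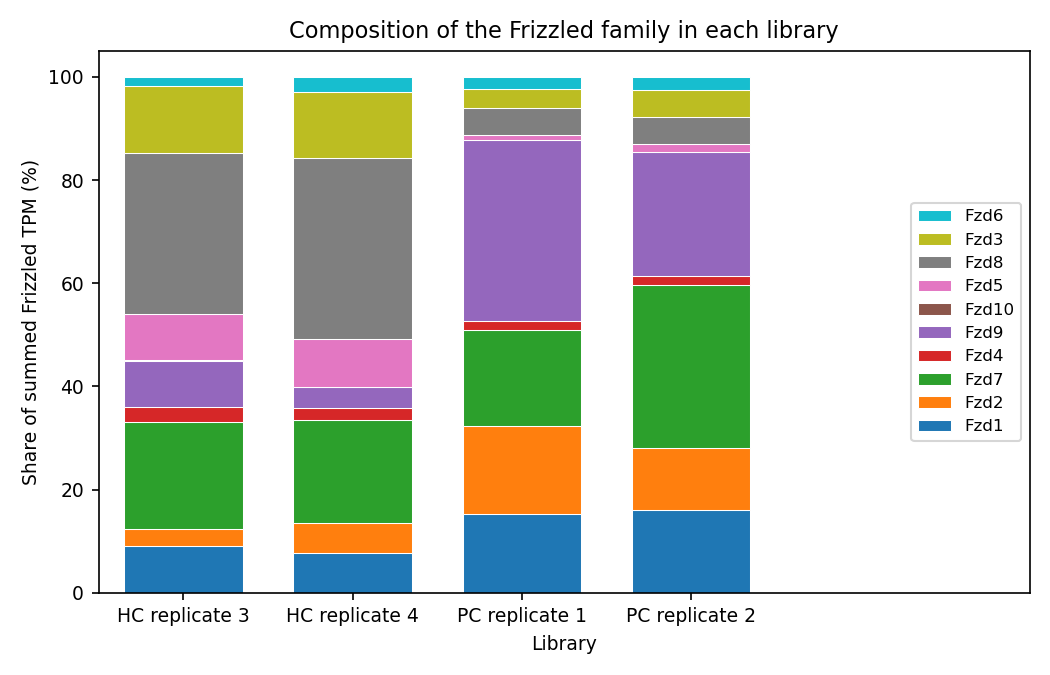
Share of the summed Frizzled TPM (%, vertical axis) taken by each receptor in the 4 libraries (horizontal axis), stacked by class. The grey Fzd8 block is 31.3% and 35.2% in HC and 5.33% and 5.18% in PC, and the purple Fzd9 block is 8.96% and 4.23% in HC and 35.2% and 23.9% in PC.

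The scale of the shares matters for long transcripts. Fzd3, whose main transcript has 12734 bases, took 12.9% and 12.7% of the family's TPM in HC and 3.60% and 5.30% in PC. As a mean share of counts it took 32.1% in HC and 14.1% in PC, more than Fzd8 in either group. The mean count share of Fzd8 (chromosome 18, 9212163 to 9218136, plus strand) was 21.2% in HC and 4.36% in PC, with a transcript of 3346 bases in the deposited tables. GENCODE M21 gives that Fzd8 transcript 5974 bases, so its TPM rests on a shorter model. With that length and the same counts, a check chosen after seeing the data, Fzd8 had 3.21 and 7.59 TPM in HC and 3.32 and 1.85 TPM in PC. Fzd7, at 3.84 and 7.80 TPM in HC, then ranked first in both HC libraries and Fzd8 second. The share of Fzd8 was then 20.1% and 23.0% in HC and 2.99% and 2.91% in PC. That of Fzd5/8 was 30.4% and 33.9% in HC and 3.85% and 4.52% in PC, still with no overlap. With the counts held, a longer transcript can only lower the TPM and share of Fzd8. Reads from the added bases would not be in these counts, so the check does not settle the rank.

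The question of the design, which genes differ between hypertrophic and proliferating chondrocytes, was put to each receptor with edgeR's quasi-likelihood test over all genes. A receptor is said to have fallen or risen only at an adjusted p (Benjamini-Hochberg over all genes tested) under 0.05. Of 9 receptors tested, 2 fell in HC and 0 rose, while 4.71% of all 16598 genes passed in either direction, which is 1.96% lower and 2.75% higher. At an unadjusted p under 0.05, 4 receptors were lower and 2 higher with edgeR, and DESeq2 called 4 lower and 2 higher at an adjusted p under 0.05. The DESeq2 calls were Fzd1, Fzd2, Fzd7 and Fzd9 lower and Fzd5 and Fzd8 higher. The call rate of all genes was 27% at the unadjusted edgeR p and 18.8% with DESeq2. With no filter on low counts, where 7.99% of genes passed, edgeR called 1 receptor higher (Fzd5) and 4 lower (Fzd1, Fzd2, Fzd7 and Fzd9). The median log2 fold change was -1.19 over the 9 receptors and -0.035 over all genes. In CPM after TMM scaling (trimmed mean of M values, used for CPM from here on), both HC libraries lay below both PC libraries for 6 receptors and above for 3. Over all genes these shares were 33.3% and 27.7%, and 61% of genes did not overlap in either direction. Fzd10 had too few counts to be tested. Each library was also left out in turn, which leaves 1 library in its group, assumed to vary like the other group. The share of all genes passing was then 28.4% without HC replicate 3, 39% without HC replicate 4, 3.51% without PC replicate 1 and 6.27% without PC replicate 2. A call without an HC library is therefore little check on a receptor.

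**Figure D2:**
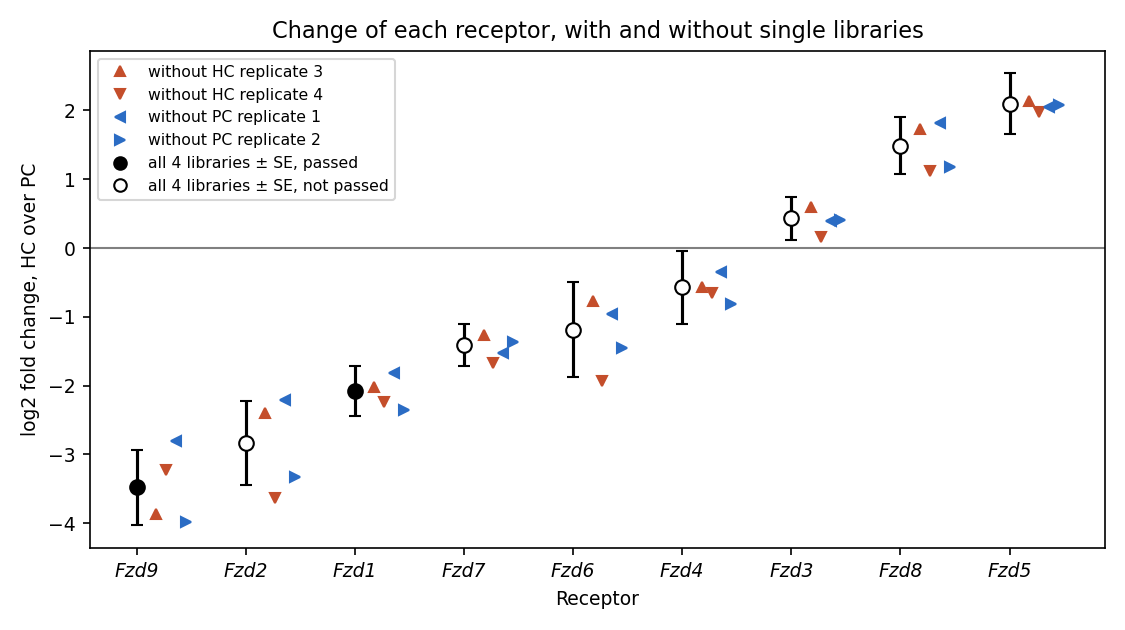
Log2 fold change of HC over PC (vertical axis) for the 9 receptors tested (horizontal axis), with the standard error. Filled circles passed the edgeR test, open circles did not, and triangles leave out 1 library each. Fzd9 and Fzd1 are filled, at -3.48 and -2.08, and no triangle of any receptor lies across 0 from its circle.

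Fzd9, a receptor of the Fzd4/9/10 class with a known role in bone-forming osteoblasts of mice, fell most in fold among the receptors. It lies on chromosome 5 (GRCm38, 135248938 to 135251230, minus strand) in a single exon. It had 1.67 and 1.66 TPM in HC and 40.1 and 15.52 TPM in PC, from 56 and 64 estimated counts in HC and 1961 and 977 in PC. In TPM the HC libraries gave nearly the same level, and the PC libraries differed 2.59-fold. In CPM, the scale of the test, the HC libraries were further apart, at 4.55 and 2.88, with 57.0 and 25.4 in PC. On the log2 scale HC minus PC was -3.48, with a standard error of 0.55 (2 libraries in each group, edgeR adjusted p = 0.0375), which is 11.2-fold lower in HC. Errors after log2 fold changes below are standard errors from the same fit. It ranged from -3.98 to -2.81 when single libraries were left out. It passed in all 4 of these fits, among them those without PC replicate 1 or PC replicate 2, in which 3.51% and 6.27% of all genes passed. It did not pass with scaling to library size alone (edgeR adjusted p = 0.0514) or with limma on TPM (limma adjusted p = 0.0605 with a pseudocount of 1 and 0.071 with 0.1), settings under which no gene passed.

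Fzd1, a receptor of the Fzd1/2/7 class that can signal through beta-catenin, also fell. It is a gene of 1 exon on chromosome 5 (4753839 to 4758035, minus strand). It had 1.70 and 3.05 TPM in HC and 17.4 and 10.4 TPM in PC. In CPM it stood at 8.69 and 9.996 in HC and 46.8 and 32.2 in PC, from 107 and 222 counts in HC and 1611 and 1241 in PC. The groups did not overlap on either scale, and in TPM the libraries differed 1.8-fold within HC and 1.67-fold within PC. The log2 fold change was -2.08 ± 0.36 (edgeR adjusted p = 0.0424), 4.22-fold lower in HC. Leaving out PC replicate 1 ended the call (-1.82, edgeR adjusted p = 0.184), with 3.51% of all genes passing. An offset for transcript length also ended it (edgeR adjusted p = 0.0545, 2.63% of all genes passing), as did the settings under which no gene passed. It passed without PC replicate 2 (6.27% of all genes passing), and also without HC replicate 3 or HC replicate 4, where 28.4% and 39% of all genes did.

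The RefSeq promoter windows of the 2 receptors that fell are shown. Each window runs from 250 bases before to 50 after the RefSeq start (GRCm38.p6), 5′ to 3′ on the gene's strand. They are chr5:135250998-135251297 for Fzd9 and chr5:4758167-4758466 for Fzd1, both on the minus strand. Capitals mark matches, on either strand, to any of 7 short motifs that are spelled out below the sequences.
Fzd9 promoter: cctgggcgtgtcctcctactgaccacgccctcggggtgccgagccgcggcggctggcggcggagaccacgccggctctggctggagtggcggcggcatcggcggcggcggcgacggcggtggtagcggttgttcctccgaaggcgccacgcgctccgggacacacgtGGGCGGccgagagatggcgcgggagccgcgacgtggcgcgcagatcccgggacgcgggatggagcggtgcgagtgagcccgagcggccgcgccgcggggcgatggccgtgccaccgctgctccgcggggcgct
Fzd1 promoter: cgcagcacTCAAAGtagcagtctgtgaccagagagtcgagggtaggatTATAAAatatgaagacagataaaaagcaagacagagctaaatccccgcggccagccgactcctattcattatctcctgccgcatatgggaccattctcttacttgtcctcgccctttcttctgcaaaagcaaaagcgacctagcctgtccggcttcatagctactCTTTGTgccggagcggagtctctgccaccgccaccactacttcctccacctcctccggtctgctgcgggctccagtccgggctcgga
The Fzd9 window has 78.0% G and C and 53 CpG pairs, against 54.0% and 16 in Fzd1 and medians of 52.7% and 7 over 32851 promoter windows. The windows are not alike in place, since 233 of the 300 bases of Fzd9 lie inside its GENCODE M21 gene and reach into the coding sequence, while all 300 of Fzd1 lie outside. The TATA letters TATAAA occur in 13.6% of all windows and, among the 6 receptors with a window, in Fzd1. The TCF/LEF letters CTTTGA, bound by the partners of beta-catenin, occur in 16.0% of all windows and again in Fzd1 among the receptors. The GC box letters GGGCGG occur in 35.7% of all windows and in those of Fzd9, Fzd10, Fzd4, Fzd5 and Fzd7. The Sox letters ACAANG occur in 41.2% of all windows and in Fzd1, Fzd4 and Fzd7. The letters CCAAT occur in 37.4% and in Fzd4, Fzd5 and Fzd7. The Runx letters TGTGGT (16.8% of all windows) and the E2F letters TTTCGCGC (0.323%) were not in any of the 6. A match is a description of the letters and shows no binding.

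Fzd2 and Fzd7, the other members of the Fzd1/2/7 class and receptors in beta-catenin signalling, were lower in both HC libraries but did not pass. Fzd2 (chromosome 11, 102604396 to 102608058) had 0.621 and 2.26 TPM in HC and 19.6 and 7.78 TPM in PC, from 34 and 143 counts in HC and 1572 and 803 in PC. The groups did not overlap, although the libraries differed 3.64-fold within HC and 2.51-fold within PC. Its log2 fold change was -2.84 ± 0.61 (edgeR adjusted p = 0.0598), larger than that of Fzd1 but with a wider error. Fzd7 (chromosome 1, 59482424 to 59486955) had 3.84 and 7.80 TPM in HC and 21.3 and 20.5 TPM in PC. It was the steadiest of the abundant receptors in PC, and both HC libraries lay below. Its change was -1.41 ± 0.31 with the same adjusted p. Fzd2 passed when HC replicate 3 (-2.40), HC replicate 4 (-3.63) or PC replicate 2 (-3.33) was left out, and Fzd7 when HC replicate 3 (-1.27) or HC replicate 4 (-1.66) was. These passes stand against 28.4%, 39% and 6.27% of all genes.

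In the Fzd5/8 class both HC libraries were above both PC libraries in CPM, but neither receptor passed. Fzd5 (chromosome 1, 64730558 to 64737751, minus strand), a receptor known for its part in eye and yolk sac development in mice, had 1.65 and 3.60 TPM in HC and 0.957 and 1.02 TPM in PC. In CPM it had 14.0 and 15.6 in HC and 3.43 and 3.48 in PC, so the libraries of each group were close and the groups apart. The log2 fold change was 2.10 ± 0.44, which did not pass (edgeR adjusted p = 0.0556). It passed without HC replicate 3 (2.14) or HC replicate 4 (1.98), as 28.4% and 39% of all genes did, and did not without PC replicate 1 (2.06) or PC replicate 2 (2.08). Fzd8, the closest relative of Fzd5, had 23.6 and 35.8 CPM in HC and 12.9 and 8.21 CPM in PC, from 291 and 795 counts in HC and 444 and 316 in PC. In CPM the groups did not overlap, whereas in TPM they did, at 5.84 and 13.8 in HC and 6.07 and 3.36 in PC. Rescaled without mitochondrial genes and Gm10800, Fzd8 stood at 11.1 and 20.7 TPM in HC and 8.27 and 4.88 TPM in PC, again with no overlap. Its change was 1.49 ± 0.42 (edgeR adjusted p = 0.0944). It passed without HC replicate 3 (1.73) or HC replicate 4 (1.12), against the same shares of all genes.

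The promoter windows of Fzd5 and Fzd7 are shown as those of the other receptors described so far that have one. Neither receptor passed. They are chr1:64737701-64738000 on the minus strand for Fzd5 and chr1:59481897-59482196 on the plus strand for Fzd7, with capitals as above.
Fzd5 promoter: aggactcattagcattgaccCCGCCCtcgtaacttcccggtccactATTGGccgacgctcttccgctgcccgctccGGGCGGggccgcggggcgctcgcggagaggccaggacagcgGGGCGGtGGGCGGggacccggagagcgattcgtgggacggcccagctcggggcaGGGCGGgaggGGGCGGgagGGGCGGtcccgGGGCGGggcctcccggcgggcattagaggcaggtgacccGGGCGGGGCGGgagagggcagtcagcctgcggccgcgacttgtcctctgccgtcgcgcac
Fzd7 promoter: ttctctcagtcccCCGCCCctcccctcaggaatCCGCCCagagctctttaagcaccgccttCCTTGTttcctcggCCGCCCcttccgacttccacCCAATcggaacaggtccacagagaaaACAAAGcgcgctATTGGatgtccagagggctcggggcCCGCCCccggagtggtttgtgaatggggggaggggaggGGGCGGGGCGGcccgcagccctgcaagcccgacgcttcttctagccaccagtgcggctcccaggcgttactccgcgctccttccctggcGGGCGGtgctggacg
Both windows held CCAAT and GC box letters, and the Sox letters were found in Fzd7 and not in Fzd5. The content of G and C was 75.7% in Fzd5 and 66.7% in Fzd7, and 51 bases of the Fzd5 window and 0 of the Fzd7 window lie inside the GENCODE M21 gene.

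Fzd3 and Fzd6, the pair best known for planar cell polarity in the mouse nervous system and hair, did not pass. Fzd3 (chromosome 14, 65192449 to 65262463, minus strand) had 38.1 and 50.8 CPM in HC and 32.95 and 33.1 CPM in PC. Its log2 fold change was 0.43 ± 0.31 (edgeR adjusted p = 0.424), and the sign turned on the TPM scale. There it had 2.40 and 4.99 TPM in HC and 4.11 and 3.44 TPM in PC, which overlap. Rescaled without mitochondrial genes and Gm10800, Fzd3 had 4.56 and 7.49 TPM in HC and 5.59 and 4.99 TPM in PC. The groups still overlapped, with HC replicate 4 highest. Fzd6 (chromosome 15, 39006034 to 39038188) had 0.327 and 1.14 TPM in HC and 2.70 and 1.67 TPM in PC. Both HC libraries lay below both PC libraries, but on 20 and 80 counts in HC and 242 and 192 in PC. Its change was -1.19 ± 0.69 (edgeR adjusted p = 0.334), -0.77 without HC replicate 3 and -1.93 without HC replicate 4, the last of which passed (edgeR adjusted p = 0.0193) with 39% of all genes.

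The last members of the Fzd4/9/10 class were low. Fzd4 (chromosome 7, 89404355 to 89413134), the receptor of norrin in the vessels of the retina, had 0.549 and 0.906 TPM in HC and 1.84 and 1.16 TPM in PC. Its log2 fold change was -0.57 ± 0.53 (edgeR adjusted p = 0.545). Endothelial cells use Fzd4. Of 8 endothelial markers 7 were above both PC libraries in both HC libraries in TPM, and Cldn5 was not. In CPM 27.7% of all genes tested were above. Cdh5 had 27.4 and 21.3 TPM in HC and 0.749 and 2.59 TPM in PC. Pecam1 had 20.2 and 19.7 TPM in HC and 16.5 and 6.63 TPM in PC. The part of endothelial cells in the Fzd4 values was not tested. Fzd10 (chromosome 5, 128600844 to 128604093) had 2 and 0 counts in HC and 0 and 3 in PC. These lie at or under a floor of 3 counts per library, which amounts to 0.197 and 0.137 CPM of the library totals in HC and 0.0988 and 0.0819 in PC, so no fold is given.

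**Figure D3:**
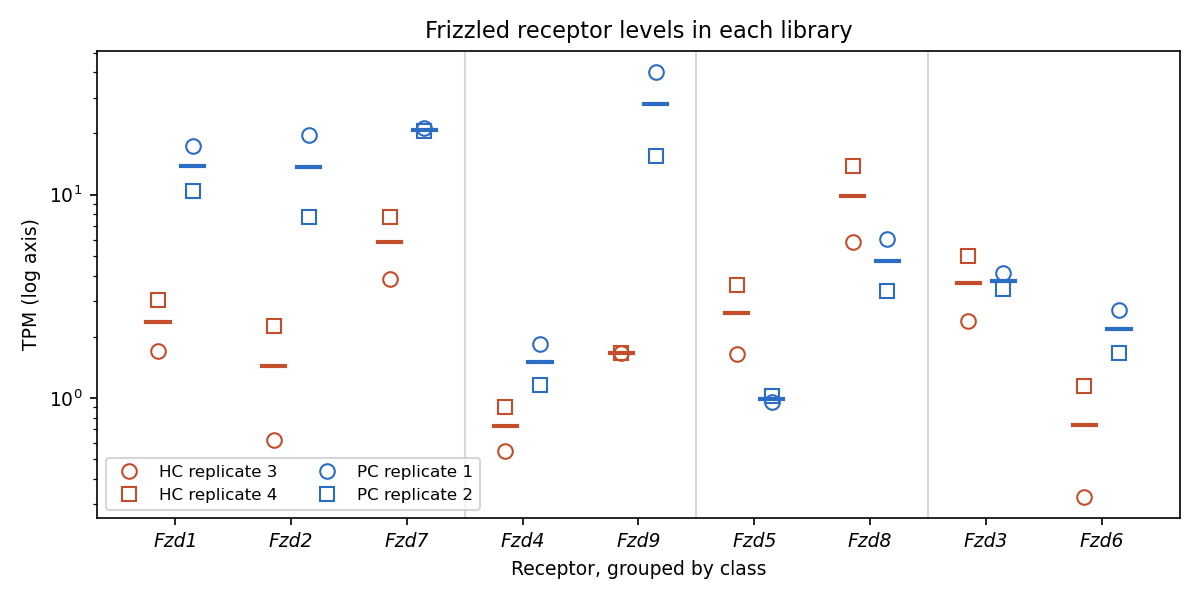
TPM (vertical log axis) of 9 receptors, grouped by class (horizontal axis), with 1 point per library and a bar at the mean of each group. Fzd10 is left out because it is at 0 in 2 libraries. The HC points of Fzd1, Fzd2, Fzd7, Fzd4, Fzd9 and Fzd6 lie below their PC points, those of Fzd5 lie above, and those of Fzd8 and Fzd3 overlap on this scale. In CPM after TMM scaling, 33.3% of all genes tested lie below and 27.7% above, and the shares in TPM were not counted.

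The order of the levels per length, with the lengths in the deposited tables, also differed. In HC the mean levels ran from Fzd8 (9.82 ± 5.64 TPM, SD, n = 2) through Fzd7 (5.82 ± 2.80), Fzd3 (3.69 ± 1.83), Fzd5 (2.62 ± 1.38) and Fzd1 (2.37 ± 0.955) to Fzd9 (1.66 ± 0.00776) and Fzd2 (1.44 ± 1.16). Each of the first 4 overlapped with the next in range, although Fzd8 stood above Fzd7 and Fzd7 above Fzd3 in both. With the longer Fzd8 model and the same counts, which can only lower Fzd8, Fzd7 stood above Fzd8 in both. Fzd6 and Fzd4 followed at 0.733 ± 0.574 and 0.728 ± 0.253 TPM and overlapped. Fzd9 overlapped with Fzd2 and lay below Fzd1 in both libraries. In PC the order was Fzd9 (27.8 ± 17.4 TPM), Fzd7 (20.9 ± 0.560), Fzd1 (13.9 ± 4.91) and Fzd2 (13.7 ± 8.32). Fzd7 exceeded Fzd1 without overlap, while Fzd9 overlapped with Fzd7 and Fzd1 with Fzd2. Below them came Fzd8 (4.72 ± 1.92) and Fzd3 (3.77 ± 0.472), which overlapped, then Fzd6 (2.18 ± 0.728), Fzd4 (1.501 ± 0.480), which overlapped, and Fzd5 (0.987 ± 0.0424). Fzd5 thus ranked 6 and 4 in HC and 9 in both PC libraries.

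Most receptors are read from 1 transcript, so their sums involve no choice between isoforms. Fzd5 has 2 coding transcripts in the tables. The longer one had 173 and 285 estimated counts in HC and 97.2 and 87.2 in PC, and the shorter one had 0 and 62.4 in HC and 20.7 and 46.6 in PC. The 2 transcripts of Fzd6 were split unevenly between libraries, with 4.55 and 16.4 counts for the first in HC and 0.0167 and 46.1 in PC. The summed counts do not depend on such splits, but the summed TPM does where the transcripts differ in length. With all Fzd5 counts on its longer transcript, a check chosen after seeing the data, Fzd5 had 1.65 and 2.85 TPM in HC and 0.759 and 0.673 TPM in PC. Its share of the family was then 8.83% and 7.41% in HC and 0.667% and 1.04% in PC, with ranks of 6 and 5 in HC and 9 in both PC libraries. Among genes that overlap a receptor, the tables list Gm9086, a pseudogene on the other strand of Fzd3, with 0 and 17 counts in HC and 0 in both PC libraries.

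Other genes of Frizzled signalling were described from 7 lists with 110 distinct genes, of which 91 were tested. Of these, 6 rose and 4 fell in HC, or 11% against the 4.71% of all genes. The lists were chosen with earlier results of these data known, which can raise this share, so it is no test of the pathway. Among co-receptors and receptor partners, 1 of 12 tested fell, 0 rose and the list's median log2 fold change was -1.05. The one that fell was Ror2, a receptor kinase that binds Wnt5a beside Frizzled and is needed for normal cartilage in mice. It had 0.842 and 0.605 TPM in HC and 29.1 and 15.2 TPM in PC (-4.30 ± 0.55, edgeR adjusted p = 0.0359). Lrp6, the beta-catenin co-receptor, had 47.0 and 61.2 TPM in HC and 83.0 and 95.6 TPM in PC and did not pass (-0.60 ± 0.32, edgeR adjusted p = 0.292). The heparan sulphate proteoglycan Gpc3 had -0.91 ± 0.32 (edgeR adjusted p = 0.140).

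Of 12 genes of receptor turnover and trafficking, 1 rose and 0 fell, with a median of -0.07. Lgr6, a receptor for R-spondins that spares Frizzled from removal, had 6.27 and 18.5 TPM in HC and 0.476 and 1.10 TPM in PC (4.18 ± 0.60, edgeR adjusted p = 0.0362). Its relative Lgr4 had 24.6 and 61.3 TPM in HC and 79.3 and 76.3 TPM in PC, which did not pass (-0.86 ± 0.31). The deubiquitinase Usp8 differed by 0.16 ± 0.30. Of 9 genes for ligands and their secretion, 1 rose and 0 fell, with a median of -0.02. Wnt5b had 9.22 and 35.1 TPM in HC and 3.21 and 3.01 TPM in PC (3.18 ± 0.54, edgeR adjusted p = 0.0399). Wnt5a, a ligand of planar cell polarity, had -0.02 ± 0.36, and Wls, which carries Wnt proteins to the surface, had 0.98 ± 0.31, and neither passed.

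Secreted antagonists moved both ways, since 2 of 15 rose and 2 fell around a median of -0.39. Frzb, a soluble relative of the Frizzled ligand-binding domain, had 145.5 and 489.7 TPM in HC and 39.7 and 51.9 TPM in PC (3.36 ± 0.40). Wif1, which binds Wnt proteins, had 16.5 and 24.7 TPM in HC and 1.78 and 2.23 TPM in PC (3.97 ± 0.36, edgeR adjusted p = 0.0359 for both). Sfrp2 and Sfrp5, further soluble relatives of Frizzled, fell, at -3.86 ± 0.69 (edgeR adjusted p = 0.0429) and -3.39 ± 0.65 (edgeR adjusted p = 0.0481). Sfrp2 had 0.344 and 0.329 TPM in HC and 13.63 and 13.62 TPM in PC, and Sfrp5 had 1.02 and 0.666 TPM in HC and 18.1 and 9.22 TPM in PC. Sfrp1 had 9.72 and 2.96 TPM in HC and 57.9 and 63.9 TPM in PC, and the Wnt-inactivating enzyme Notum had 0.593 and 4.11 TPM in HC and 10.2 and 11.2 TPM in PC. Neither passed (-2.58 ± 0.75 and -2.53 ± 0.62), although both did with DESeq2 and with no filter, as 18.8% and 7.99% of all genes did. Without single libraries Sfrp1 ran from -4.22 to -1.88 and Notum from -3.41 to -2.07. Leaving out either PC library ended the call of Sfrp2 (edgeR adjusted p = 0.409 and 0.0635), and leaving out PC replicate 1 that of Sfrp5 (edgeR adjusted p = 0.198). The call of Sfrp5 also ended with the length offset (edgeR adjusted p = 0.0576) and with a filter of at least 10 counts in 2 libraries (edgeR adjusted p = 0.0515).

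Inside the cell, 1 of 22 transducers rose and 0 fell, with a median of 0.11. The kinase Gsk3b, which marks beta-catenin for removal, had 99.1 and 410.5 TPM in HC and 34.6 and 41.2 TPM in PC (2.81 ± 0.52, edgeR adjusted p = 0.0478). The call ended with the length offset (edgeR adjusted p = 0.0522) and with a filter of at least 10 counts in 2 libraries (edgeR adjusted p = 0.0507). Ctnnb1 itself, the gene of beta-catenin, had 138.4 and 336.3 TPM in HC and 270.6 and 244.5 TPM in PC and differed by 0.06 ± 0.32. The GTPase gene Rac1 differed by 0.16 ± 0.30. Of 14 planar cell polarity partners 1 fell and 0 rose, with a median of 0.14. Prickle1, a core polarity protein, had 10.4 and 9.05 TPM in HC and 88.8 and 74.5 TPM in PC (-2.50 ± 0.39, edgeR adjusted p = 0.0370). Vangl1 and Invs had -0.54 ± 0.35 and -0.18 ± 0.40. Of 7 feedback targets of beta-catenin 1 rose and 0 fell, with a median of -0.51. It was the receptor gene Tnfrsf19, at 2.76 and 3.49 TPM in HC and 0.608 and 0.197 TPM in PC (4.24 ± 0.60, edgeR adjusted p = 0.0359), which no longer passed when PC replicate 1 was left out (edgeR adjusted p = 0.0521) or with the length offset (3.49, edgeR adjusted p = 0.0711). Lef1, a partner of beta-catenin on DNA, and Axin2, an inhibitor that beta-catenin induces, did not pass (-1.70 ± 0.38 and 1.08 ± 0.38). With the length offset Axin2 passed, at 2.31 (edgeR adjusted p = 0.0468), where 2.63% of all genes did. Without HC replicate 3 it stood at 1.38. Lef1 passed with no filter and with DESeq2, as 7.99% and 18.8% of all genes did. It stood at -2.23, -1.38 and -1.82 without HC replicate 3, HC replicate 4 and PC replicate 2.

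**Figure D4:**
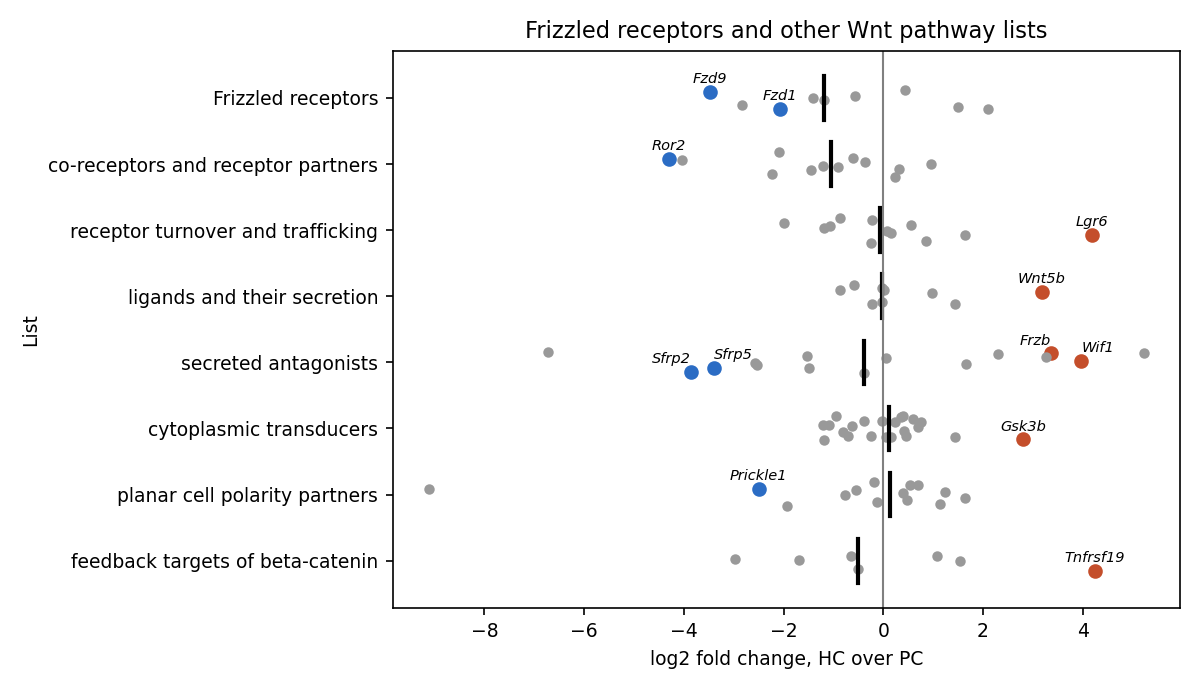
Log2 fold change of HC over PC (horizontal axis) for each tested gene of the receptor family and of 7 pathway lists (vertical axis), with a black line at the list's median. Named points, blue where lower and red where higher, passed the edgeR test, and grey points did not. The Frizzled median of -1.19 and the co-receptor median of -1.05 lie left of 0, and the other medians lie between -0.51 and 0.14. The grey point at -9.12 is Prickle4, which has no count in HC, so that its fitted value depends on the prior count.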

How the data were processed

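RNA-seq values of 4 libraries were used. Trimmomatic 0.36, kallisto 0.43.1 and the build mm10 are named per the submitters' processing notes. The strand setting is not given here by any label or header. The deposited tables hold, per the file headers, an estimated count and a TPM value for each of 109282 transcripts. Identifiers without version matched GENCODE M21 for 107899 transcripts, and the 1383 others, with 0.378% to 0.543% of counts, were not tested. For each gene, the transcripts' estimated counts were added up, then rounded. Low genes were removed by filterByExpr, scaling was by TMM in edgeR 4.0.16, and HC was tested against PC with its quasi-likelihood F-test, two-sided, at an adjusted p under 0.05 over 16598 genes. TPM was summed per gene as deposited. The script was tested on simulated data. A standard error is the fold change over the root of F. R 4.3.3, limma 3.58.1, DESeq2 1.42.0, Python 3.11.15, pandas 2.3.3, NumPy 2.4.6, Biopython 1.88 and matplotlib 3.10.9 were used.

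Depth was 15246529 to 36644496 counts, and the floor of 3 counts covers counting error only. Lists name each gene that passed and the 2 others of highest mean TPM. Members and lists were chosen with earlier results of these data known. Alternatives were another scaling, tool, filter or unit, a length offset and leaving out each library. The promoter windows come from RefSeq (6 of 10 receptors matched), and coding sequences from GENCODE M21.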

Additional observations from a re-analysis of the deposited data

How the results depend on the processing

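No paired analysis was possible because HC and PC share no replicate numbers. With 2 libraries per group, many adjusted p-values lie close to the threshold, and the smallest of any gene was 0.0359. Against 457 higher and 325 lower genes, DESeq2 called 1650 and 1468, no filter 962 and 965 and a length offset 269 and 167. Scaling to library size alone and limma on log2(TPM + 1) or log2(TPM + 0.1) called 0 (4392, 4256 and 3992 genes at an unadjusted p under 0.05). Leaving out single libraries gave 381 to 3329 higher and 257 to 3779 lower. Receptors called were 0 higher and 2 lower, with 2 and 4 in DESeq2, 1 and 4 with no filter, 0 and 1 with the length offset, 0 and 0 with library size alone or limma, and 0 to 2 and 1 to 5 without single libraries. Pathway genes called were 6 higher and 4 lower, with 12 and 17 in DESeq2, 15 lower with no filter, 0 and 0 with library size alone or limma, and 5 to 22 and 3 to 25 without single libraries. The family's log2 ratio of mean TPM was -1.63, and between -2.26 and -1.17 without single libraries. It was -1.03 in CPM and -1.40 rescaled without mitochondrial genes and Gm10800. With the same counts it was -1.83 for Fzd8 at its GENCODE M21 length and -1.64 with all Fzd5 counts on the longer transcript. The median of all genes shifted to -0.292 with library size alone, -0.388 and -0.588 in limma, -0.253 with no filter, and -0.109 and -0.214 without HC replicate 3 or HC replicate 4.

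Signs turned for genes with small changes. With library size alone Usp8, Ctnnb1 and Rac1 stood at -0.086, -0.181 and -0.084. With limma at a pseudocount of 1 and 0.1, Fzd3 stood at -0.078 and -0.114, Usp8 at -0.291 and -0.297, Ctnnb1 at -0.252 and -0.254, and Rac1 at -0.632 and -0.635. Wnt5a was at 0.005 with DESeq2 size factors and the DESeq2 test. With the length offset Wnt5a, Rac1 and Invs were at 0.055, -0.172 and 0.309. Without single libraries Usp8 ran from -0.066 to 0.36, Wnt5a from -0.492 to 0.280, Ctnnb1 from -0.203 to 0.221, Rac1 from -0.039 to 0.319 and Invs from -0.776 to 0.184. The other receptors kept their sign in all alternatives run. The cause was not tested.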
